A study of Mus musculus with 5 samples.

Results

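Mature B cells are the antibody-bearing lymphocytes that have finished building their antigen receptor and recirculate between blood, lymphoid organs and bone marrow. Members were chosen on raw transcript counts, in which each unique molecular identifier (UMI) stands for 1 captured transcript. A droplet barcode with at least 500 UMIs and at most 10% of them from 13 mitochondrial genes was kept. It was a member when it had at least 1 UMI of Cd79a, at least 3 UMIs of Ighd and Ms4a1 together, and no UMI of Rag1, Vpreb1 or Dntt. By this rule 1247 of 29679 barcodes kept in the 5 libraries were mature B cells, or 4.20%. The levels of these 6 genes describe the choice and are not findings. The summed share of the 13 mitochondrial genes is capped by the choice too.

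The study followed the bone marrow of 5 C57BL/6J mice, 8 weeks old, that each received 1000 BCR-ABL1 pre-B acute lymphoblastic leukemia cells through the tail vein without irradiation. BCR-ABL1 is a fused tyrosine kinase that drives this leukemia. The marrow of femurs and tibias was taken from 1 mouse at once (day 0) and from 1 mouse each after 3, 6, 9 and 12 days, and made into 1 single-cell RNA library per mouse with the 10x 3' v2 chemistry. The comparisons ask how the marrow differed over the days after transplantation. By the paper's flow cytometry, leukemia cells were scarce in the marrow up to day 9 and more frequent on day 12. The day 0 mouse was transplanted too, so no untreated animal was measured. With 1 mouse per day there are no replicates, so day, mouse and library cannot be told apart and no test between days was possible. The count tables used here do not mark a cell as host or transplanted.

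A B cell that has assembled a working receptor leaves the pre-B stage, passes through an immature and transitional stage, and settles as a follicular, marginal zone or B-1 cell. Mature cells carry IgM and IgD on the surface, present antigen on MHC class II molecules, and depend on signals through the B cell receptor and the BAFF receptor. In marrow they lie beside the dividing precursors of their own lineage, and many of them have come back from the blood.

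The libraries of days 0, 3, 6, 9 and 12 held 35329966, 38827241, 40601920, 43554233 and 33425695 UMIs, and values below are given in this order of days unless a day is named. Members numbered 416, 131, 365, 287 and 48, and their UMIs summed to 909609, 416215, 1150864, 777961 and 110627. Their median UMIs per cell were 1629.5, 2214, 2216, 1813 and 1666.5, so members of days 3 and 6 held more UMIs than those of days 0 and 12. Median genes per cell were 719.5, 909, 906, 792 and 771. The level of a gene is its mean over member cells of UMIs per 10000 UMIs of the cell. A difference between days is a logFC, the natural-log difference of the levels plus 1, and a gene counts as higher or lower when it passed 1.5-fold. A gene was compared when it had a UMI in at least 10% of members of either library, which favors the library with the higher level for genes near that limit. Shares carry exact Clopper-Pearson 95% intervals and summed counts exact Poisson intervals, which cover counting error only. A count of 0 has a limit of its own, taken as 3 cells of the total, and allows a share of up to 0.721%, 2.29%, 0.822%, 1.05% and 6.25% of members with a UMI, which limits cells with a UMI and not cells expressing the gene.

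The name of the cells was checked on 3 marker genes that the rule did not use. Fcer2a, the low-affinity IgE receptor of follicular B cells, had levels of 2.36, 1.33, 1.49, 1.32 and 1.91 in members and at most 0.0218 in neutrophils, here the barcodes with at least 5% of UMIs from S100a8 and S100a9. Bank1, an adaptor of B cell receptor signaling, had levels of 3.17, 2.75, 3.18, 3.06 and 3.47, and at most 0.325 in any library's early B-lineage cells, which have Cd79a and at least 1 UMI of Rag1, Vpreb1 or Dntt. H2-Ob, a chain of the class II regulator H2-O, had levels of 4.37, 3.73, 3.90, 3.15 and 4.50, against 1.08, 0.725, 0.997, 1.02 and 0.712 in early B-lineage cells. The 3 markers were thus above both other cell classes in each of the 5 libraries. These are mean levels and do not name each cell. By library, 18.3% to 29.3% of members had a Fcer2a UMI. A UMI of Vpreb3, a gene of precursors, was found in 33.3% to 63.1%, and how many members were immature B cells was not tested. The markers that the rule did use had levels of 11.9, 8.36, 9.29, 8.20 and 11.7 for Ighd, the IgD heavy chain, and 15.5, 18.3, 15.2, 18.3 and 14.5 for Ms4a1, the CD20 antigen. The levels of these 2 genes are fixed by the rule. In the plot of 8 genes by day, Fcer2a, Bank1 and H2-Ob separate members from T cells, called by Cd3 genes, and from neutrophils, while Cd24a does not separate them from neutrophils, whose Cd24a levels were 5.57, 6.17, 7.16, 6.98 and 5.85.

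**Figure D1:**
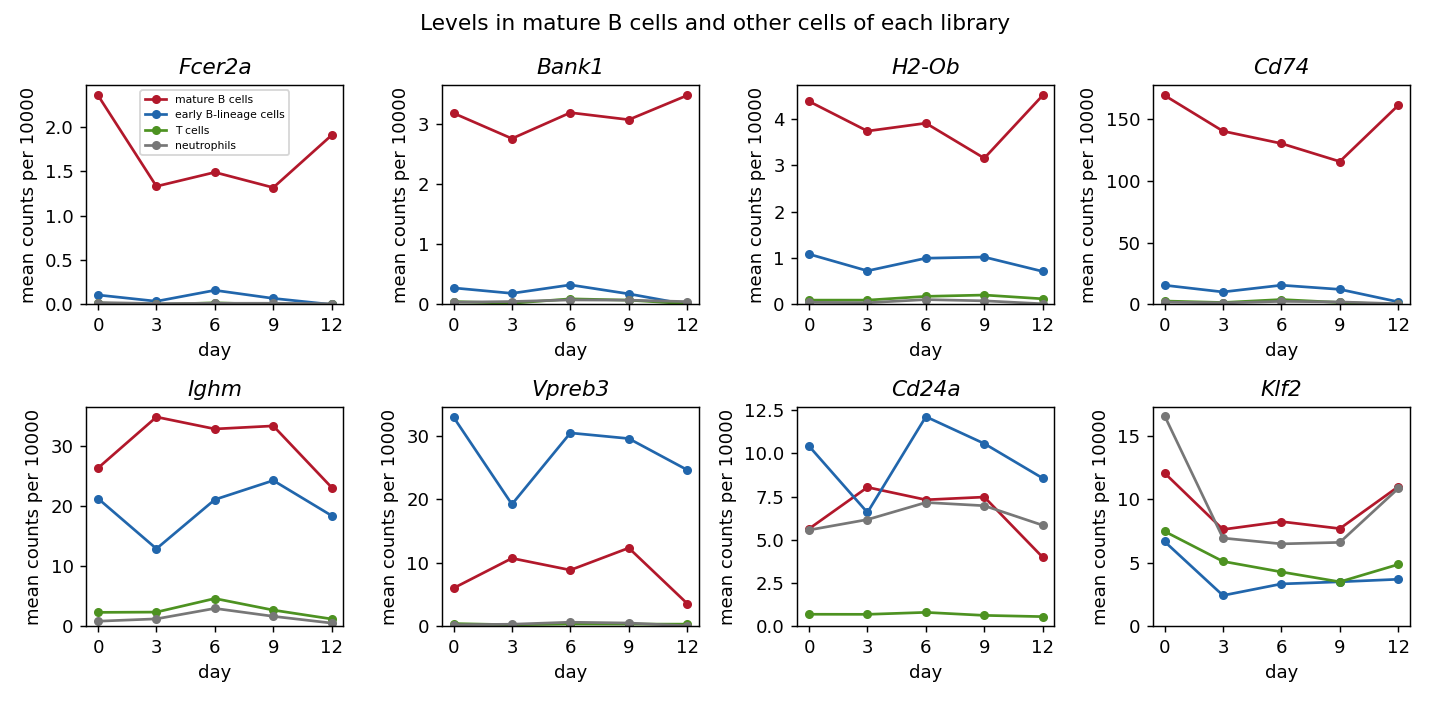
Mean level (UMIs per 10000 UMIs) of 8 genes on the vertical axes against day after transplantation, with 1 mouse per day and a line for each of 4 cell classes. Fcer2a, Bank1, H2-Ob and Cd74 are highest in members on each day, whereas Vpreb3 is highest in early B-lineage cells.

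At the edge of the rule, 357 members had exactly 3 UMIs of Ighd and Ms4a1 together and 438 barcodes with 2 fell just outside. Both groups had a median of 1614 UMIs per cell. Their levels were 2.28 inside and 1.75 outside for Fcer2a, 3.4 and 3.33 for Bank1, 4.55 and 4.35 for H2-Ob, and 153 and 134 for Cd74. These values pool the days. By day, Fcer2a was lower outside on days 0, 3, 6 and 9 and higher on day 12, and Cd74 was lower outside on days 0, 6 and 9 and higher on days 3 and 12.

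Mature B cells made up 6.65% (6.04 to 7.29) of kept barcodes on day 0, 2.69% (2.25 to 3.18) on day 3, 6.04% (5.45 to 6.67) on day 6, 4.13% (3.68 to 4.63) on day 9 and 0.863% (0.637 to 1.14) on day 12. The share on day 0 was 7.71 times that on day 12, and the day 12 interval overlaps none of the others. Early B-lineage cells made up 3.83%, 6.47%, 4.73%, 4.75% and 0.719%, so members per early cell were 1.73, 0.416, 1.28, 0.870 and 1.20. Day 3 held the fewest members per early cell and day 12 had few of both, as the plot of both shares shows. T cells, called by at least 2 UMIs of Cd3d, Cd3e and Cd3g and under 5% S100a8 and S100a9, made up 9.06%, 3.39%, 4.93%, 4.59% and 3.4%, and neutrophils 51.2%, 62.9%, 56.8%, 60.7% and 77.6%. A share of cells falls when another class grows, and absolute numbers were not measured. Asking for at least 5 UMIs of Ighd and Ms4a1 gave shares of 2.57%, 1.81%, 3.28%, 1.99% and 0.324%, with day 6 above day 0. Applying the rule after drawing 1000 UMIs from each cell gave 3.19%, 1.21%, 2.34%, 1.96% and 0.375%, in the main order. A mitochondrial limit of 5% gave 6.44%, 1.94%, 3.79%, 2.12% and 0.710%. Leaving out members with transcripts of another lineage gave 5.62%, 2.05%, 3.86%, 2.81% and 0.647%. Day 12 had the lowest share under each of these alternatives.

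**Figure D2:**
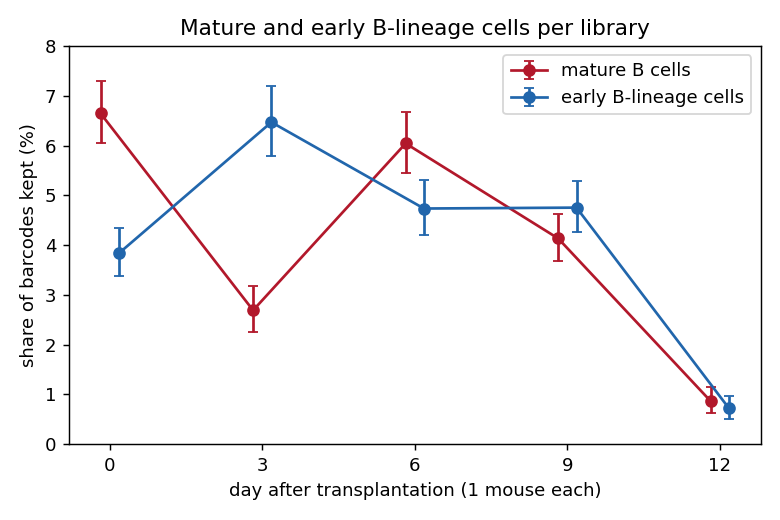
Share of kept barcodes (%) that were mature B cells (red) or early B-lineage cells (blue) against day after transplantation, 1 mouse per day, with 95% Clopper-Pearson intervals as bars. Members made up 6.65% on day 0, 2.69% on day 3 and 0.863% on day 12.

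Droplets also capture free RNA, and members held transcripts of other lineages. The neutrophil list of 9 genes summed to levels of 367, 334, 488, 500.1 and 608 in members, with S100a8 the most abundant, and to 4652, 4457, 4204, 4295 and 4908 in neutrophils. S100a8 had a UMI in 100% of members of each library. Barcodes with at most 100 UMIs, read as free RNA, had sums of 2161, 2272, 1967, 2151 and 2873 for the same list, so members held less of it than free RNA did on every day. Of these 9 genes, 9 were compared on each day and 0, 3, 3 and 4 were higher than on day 0, against 0.549%, 0.646%, 1.33% and 2.61% of all genes compared. Their median logFC was -0.07, 0.32, 0.35 and 0.30 on days 3, 6, 9 and 12, and the day 3 value was 0.10 without members that had transcripts of another lineage. Members with a high share of this same list are among those left out, so the rerun value is shaped by the choice. The 7 monocyte genes summed to 20.6, 24.3, 39.0, 27.7 and 29.3, with Lyz2 the most abundant, against 132, 163, 171, 139 and 147 in free RNA. The 10 T cell genes summed to 1.13, 0.621, 0.818, 0.369 and 0.450, with Trbc1 the most abundant in the mean over days but at 0 on day 9, against 57.4, 54.0, 54.3, 45.1 and 49.4 in T cells. The part of these transcripts in the differences between days was not tested.

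Other lists were low in members. The 7 natural killer genes summed to 0.798, 0.245, 0.300, 0.360 and 2.59 (Nkg7 the most abundant in the mean over days), the 5 plasmacytoid dendritic genes to 1.06, 1.20, 1.84, 2.03 and 1.09 (Bst2 by that mean), and the 6 conventional dendritic genes to 0.0982, 0.0988, 0.174, 0.0839 and 0 (Flt3 by that mean), with Xcr1 at 0. The 6 erythroid genes summed to 0.777, 0.916, 1.03, 2.01 and 0.309 (Hbb-bs by that mean, but at 0 on day 12), with Alas2 at 0, and Hbb-bs was higher on day 9. The 5 stromal genes summed to 1.28, 1.03, 1.02, 1.03 and 0.812, nearly all of it Pecam1, the adhesion molecule CD31, which B cells carry too. The 8 early B genes summed to 0.255, 0.300, 0.183, 0.473 and 0.297, with Rag1, Vpreb1 and Dntt at 0 by the rule, against 49.5, 24.7, 26.0, 31.2 and 46.5 in early B-lineage cells. Early B-lineage cells were called by a UMI of these 3 genes, so part of this contrast is fixed by the choice on both sides. No gene of the T, natural killer, conventional dendritic or early B lists was detected widely enough in members to be compared between days. Members were marked for another lineage by 2 or more UMIs of the T, natural killer, monocyte or plasmacytoid genes. Lyz2 was left out of the monocyte genes, and of the plasmacytoid genes only Siglech and Ccr9 were used. Over 5% neutrophil UMIs or over 5% hemoglobin UMIs marked a member too. Marked members numbered 64, 31, 132, 92 and 12, or 15.4%, 23.7%, 36.2%, 32.1% and 25%. Of these, 52, 28, 121, 76 and 5 met the limit through the monocyte genes. These genes include Ly6c2, with levels of 14.4 to 22.0 in free RNA, 8.94 to 13.4 in neutrophils and 9.61 to 13.8 in T cells. The mark is thus not specific to monocytes. No doublet caller was run. Only 1 member barcode occurred in 2 libraries (days 3 and 6), and 513 kept barcodes were shared over the 10 pairs of libraries.

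Against day 0, which all 4 comparisons share, few genes differed by 1.5-fold. On day 3, 16 of 2916 genes were higher (0.549%) and 24 lower (0.823%). On day 6, 19 of 2940 were higher (0.646%) and 14 lower (0.476%). On day 9, 35 of 2623 were higher (1.33%) and 16 lower (0.61%). On day 12, with 48 members, 71 of 2723 were higher (2.61%) and 55 lower (2.02%). The median logFC over all genes compared was 0.02, 0.01, 0.01 and 0.03. These counts depend on the scale. A pseudocount of 0.1 gave 291 higher and 185 lower on day 3, 173 and 95 on day 6, 199 and 134 on day 9, and 525 and 349 on day 12. The share of called genes that were higher on day 3 was 40.0%, and 61.1% with that pseudocount, 62.3% without members that had transcripts of another lineage, and 57.7% without genes that were higher in neutrophils. On day 9 it was 68.6%, and 54.4% from summed UMIs and 51.6% at 1000 UMIs per cell. On days 6 and 12 it was 57.6% and 56.3%, and every other scaling run stayed within 10 points of these values. Of the calls named below, some were of genes that reached the 10% limit in 1 library only, the one with the higher level. Ccnd2 on days 3 and 9, Igha, Jchain and Hbb-bs on day 9, and Lars2, Mgat1, Itgam and Birc5 on day 12 reached it in the later library alone. Ppp1r15a on days 3, 6 and 9, Ccl5 on day 3 and Ppig on day 12 reached it on day 0 alone.

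On day 3 the largest increases were those of Ifi27l2a, an interferon-induced gene (logFC 0.84), mt-Nd3 (0.68), Ifi30, a lysosomal thiol reductase of antigen processing (0.59), mt-Nd1 (0.55), and the cyclin gene Ccnd2 (0.54). The largest decreases were those of Fos (-0.95), Junb (-0.94), Fosb (-0.77), Ppp1r15a, a stress-response phosphatase subunit (-0.73), and the chemokine gene Ccl5 (-0.68). Ccnd2 had a UMI in 19.1% of members on day 3 and 5.77% on day 0, Ppp1r15a in 6.87% and 22.8%, and Ccl5 in 7.63% and 11.3%, so the filter favors these calls. With a mitochondrial limit of 5%, Ifi30 (0.38) and mt-Nd1 (0.36) no longer passed 1.5-fold. Ccl5 had a level of 44.9 in T cells of day 3, and without members that had transcripts of another lineage its logFC was -0.27 on day 3 and -0.05 on day 6, so it no longer passed.

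On day 6 the largest increases were those of mt-Nd3 (0.77), mt-Nd1 (0.69), mt-Nd2 (0.63), and the monocyte genes Lyz2 (0.60) and Ly6c2 (0.59). Ly6c2 no longer passed without members that had transcripts of another lineage (0.32). UMIs of Ly6c2 count toward that mark, so leaving these members out favors a lower value by construction and is no independent check. The largest decreases were those of Rps27rt, a copy of a ribosomal protein gene (-0.64), Ppp1r15a (-0.61), Junb (-0.57), Fos (-0.55) and Ccl5 (-0.52). On day 9 the largest increases were those of mt-Nd3 (0.89), mt-Nd1 (0.75), Igha, Ccnd2 (0.71) and Vpreb3 (0.64). Igha and Ccnd2 had a UMI in 19.2% and 20.2% of members on day 9 and 0.721% and 5.77% on day 0, so they were compared through day 9 alone, which favors a higher call. Igha, the IgA heavy chain, had 105 UMIs in members of day 9 and 3 on day 0, while its level in free RNA of day 9 was 6.01 and in members 1.14. The largest decreases on day 9 were those of Junb (-0.75), Ppp1r15a (-0.61), Rps27rt (-0.60), Shisa5, a p53-induced gene (-0.60), and the predicted gene Gm11808 (-0.59).

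Ccnd2, which drives cells into the cycle and is also carried by T cells (level 3.63 on day 3), had levels of 0.386, 1.38, 0.954, 1.81 and 0.986 in members. Ifi30 had levels of 2.42, 5.20, 3.70, 5.51 and 2.28, and was at most 0.422 in neutrophils. Ccnd2 was lowest on day 0, while Ifi30 was low on days 0 and 12. Shisa5 had levels of 10.6, 7.07, 7.47, 5.38 and 7.76 and Rps27rt of 23.4, 15.6, 11.8, 12.3 and 27.5. Shisa5 was highest on day 0, while Rps27rt was high on days 0 and 12. Rps27rt had levels of 22.2, 16.1, 12.7, 14.7 and 25.4 in T cells and 7.86, 3.00, 2.74, 2.97 and 4.41 in free RNA, also highest on days 0 and 12.

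On day 12, with few members, the largest increases were those of the neutrophil genes Retnlg (1.04), S100a6 (0.80) and Ifitm6 (0.72), and of Lars2, a mitochondrial leucyl-tRNA synthetase (0.75), and Mgat1, an enzyme of glycan building (0.75). Retnlg had a level of 45.0 in members of day 12 and 15.3 on day 0, and levels of 309.9 and 222 in neutrophils of the same days. S100a6 no longer passed without members that had transcripts of another lineage (0.32). Lars2 and Mgat1 rested on 18 and 15 UMIs on day 12. They had a UMI in 33.3% and 22.9% of its members and 8.17% and 9.13% on day 0, so they too were compared through the later day alone. Among the largest decreases were those of Cd55, which shields cells from complement (-0.63), Ppig, a prolyl isomerase (-0.62), Siglecg, an inhibitory receptor of B cells (-0.60), and Ybx1, an RNA-binding protein gene (-0.56). Per 10000 summed UMIs, Cd55 had 1.45 (0.827 to 2.35) on day 12 and 3.07 (2.72 to 3.45) on day 0, intervals that do not overlap. Ppig had 6 UMIs on day 12, and from summed UMIs it no longer passed (-0.36).

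The receptor itself was read through its constant-region genes. Ighm, the IgM heavy chain, had levels of 26.3, 34.8, 32.8, 33.3 and 23.1, and no day passed 1.5-fold. A UMI of both Ighm and Ighd was found in 76.4%, 69.5%, 74.5%, 60.3% and 75.0% of members. At 1000 UMIs per cell the shares were 52.6%, 41.4%, 43.0%, 40.8% and 42.2%. Ighd is a gene of the rule, so these shares are shaped by the choice and are a description. Igkc, the kappa light chain, had levels of 106, 107, 103, 102 and 92.1, a narrow range, with 1.22 to 7.43 in neutrophils of days 0 and 6. The lambda genes had levels of 10.8, 15.5, 16.4, 13.8 and 16.4 for Iglc1, 25.6, 22.5, 22.5, 23.3 and 27.3 for Iglc2 and 18.4, 14.9, 14.9, 16.2 and 13.7 for Iglc3, whose near-identical sequences leave the split among them uncertain. Of the 12 genes of this list, Ighg1 and Ighe had no UMI in any member, and Igha on day 9 was the only 1 past 1.5-fold on any day.

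Each B cell uses kappa or lambda for its receptor, and lambda is the minor class in mice. Among members with at least 3 light chain UMIs, lambda UMIs outnumbered kappa UMIs in 17.0% (13.5 to 21.0), 16.0% (10.2 to 23.5), 17.6% (13.9 to 21.9), 19.2% (14.8 to 24.3) and 20.8% (10.5 to 35). These shares overlap on all days, and drawing 1000 UMIs from each cell gave 17.0%, 14.5%, 17.0%, 20.3% and 20.9%. Lambda made up between 20% and 80% of the light chain UMIs in 65.5%, 58.0%, 58.1%, 58.0% and 64.6% of these members, so most cells had UMIs of both classes. Neutrophils with at least 3 light chain UMIs, which should make none of their own, numbered 95, 76, 1221, 725 and 21, and 65.3%, 52.6%, 45.9%, 58.8% and 23.8% of them lay in the same middle range. The 95% intervals of members and neutrophils overlap on days 0, 3 and 9. Members lay above neutrophils on day 6, at 52.9% to 63.3% against 43.0% to 48.7%, and on day 12. Lambda UMIs outnumbered kappa UMIs in 15.8%, 15.8%, 6.72% and 17.1% of these neutrophils on days 0, 3, 6 and 9. The part of free RNA in these shares was not tested.

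Variable-region genes were seen in few cells of these libraries, which read transcripts from their 3' end. A UMI of an Ighv gene occurred in 46, 6, 22, 11 and 4 members, over 33, 6, 21, 9 and 4 of 185 genes. The gene seen in most members was Ighv1-9 on day 0, in 4 cells. Igkv genes occurred in 52, 18, 48, 33 and 3 members, with Igkv19-93 in 8, 4, 7 and 4 members of days 0, 3, 6 and 9. No heavy chain variable gene was thus seen in more than 4 members of a library, which is too few to tell a clone from a varied population.

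Partners of the receptor differed little between days. Cd79b, the signaling chain bound to the receptor, had levels of 18.2, 22.4, 17.6, 18.2 and 15.4. Cd22, an inhibitory lectin, had 1.5, 1.43, 1.29, 1.48 and 2.08. Neither passed 1.5-fold on any day. Of the inhibitory molecules, Cd72 had levels of 2.25, 3.42, 2.89, 3.16 and 1.18 and Fcgr2b, the inhibitory IgG receptor, 0.970, 0.536, 0.680, 0.838 and 0.584. The kinases had 1.62, 1.63, 1.78, 1.68 and 1.51 for Lyn, 1.49, 1.94, 1.96, 1.87 and 1.42 for Syk and 0.745, 0.902, 0.737, 0.567 and 0.669 for Btk, and the adaptor Blnk 1.39, 1.55, 1.65, 1.31 and 1.34. These 6 genes did not pass 1.5-fold on any day. Of the 27 genes of the B cell receptor signaling list, 23, 24, 23 and 23 were compared on days 3, 6, 9 and 12, with medians of 0.00, -0.01, -0.01 and -0.04. Only Dok3, an inhibitory adaptor, passed, and it was lower on day 12. Cd37 is on 2 gene IDs, of which 1 had no UMI in members.

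Most B-lineage transcription factors varied little. Pax5, which holds the B cell identity, had levels of 1.98, 2.41, 2.22, 2.48 and 1.86, and Ebf1, its partner, 17.4, 17.1, 16.5, 17.8 and 13.6. Pou2f2, an octamer-binding factor of mature B cells, had 3.01, 3.78, 4.19, 3.77 and 2.97, and Mef2c, a factor of B cell survival and growth, 6.23, 4.85, 5.79, 4.62 and 7.10. None of these passed 1.5-fold. Spib, an Ets factor for receptor signaling, had levels of 2.09, 2.97, 2.92, 3.65 and 3.18 and logFC of 0.25, 0.24, 0.41 and 0.30, and passed on day 9. It was lowest on day 0. Klf2, which keeps lymphocytes quiescent and guides their traffic, had levels of 12.1, 7.63, 8.25, 7.70 and 11 and logFC of -0.42, -0.35, -0.41 and -0.09, and was lower on days 3 and 9. Klf2 in neutrophils had levels of 16.6, 6.95, 6.49, 6.61 and 10.9, so both cell classes had their highest value on day 0, and the part of free RNA or of tissue handling in it was not tested. Of 26 factors, 25, 24, 24 and 23 were compared, with medians of -0.01, -0.01, 0.06 and -0.01, and Klf2 and Spib were the only genes past 1.5-fold.

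Follicular genes were the next group. Cd55 had levels of 4.02, 2.30, 2.71, 1.93 and 1.67 and logFC of -0.42, -0.30, -0.54 and -0.63, and was lower on days 3, 9 and 12, while neutrophils had at most 0.263. Fcer2a had logFC of -0.36, -0.30, -0.37 and -0.14, below 0 on each day and short of 1.5-fold. Cr2, the complement receptor CD21, had levels of 0.853, 0.726, 0.710, 0.612 and 0.675. Of 11 genes, 10, 10, 9 and 10 were compared, with medians of -0.09, -0.04, -0.14 and 0.02, and Klf2 and Cd55 were the only genes to pass on any day. On day 12 the median was -0.15 at 1000 UMIs per cell and -0.01 from summed UMIs, so its sign was not stable.

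MHC class II genes present peptides to T cells and include genes with the largest differences between members and early B-lineage cells. Cd74, the invariant chain that guards the peptide groove, had levels of 169, 139.8, 129.9, 115 and 161 in members and 15.5, 10.1, 15.5, 12.2 and 2.12 in early B-lineage cells. The chains had 33.6, 29.1, 27.2, 24.2 and 30.8 for H2-Aa, 34.2, 26.6, 24.1, 21.2 and 32.3 for H2-Ab1 and 26.6, 23.0, 20.9, 17.9 and 26.1 for H2-Eb1. Each of the 4 was highest on day 0, next on day 12 and lowest on day 9. H2-DMb1, part of the peptide-loading catalyst H2-DM, had levels of 1.76, 0.889, 0.783, 0.738 and 1.23, its copy H2-DMb2 6.85, 5.65, 5.57, 4.48 and 6.41, and H2-Oa, the other chain of H2-O, 2.83, 2.41, 1.75, 1.61 and 1.66. The same order held for H2-DMb1 and H2-DMb2, while H2-Oa was low on day 12 too. Ciita, the activator of these genes, had 0.495, 0.245, 0.369, 0.456 and 0.653 and was too sparse to be compared. H2-DMb1 was lower on days 6 and 9 and H2-Ab1 on day 9.

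Of the 11 class II genes 9 were compared on each day. None was higher, and 0, 1, 2 and 0 were lower, with medians of -0.17, -0.26, -0.38 and -0.06 on days 3, 6, 9 and 12. On days 3, 6 and 9 all 9 were below 0, against 43.8%, 47.3% and 45.9% of all genes compared. The medians were below 0 under every alternative run, from -0.21 to -0.14 on day 3, -0.32 to -0.23 on day 6, -0.47 to -0.34 on day 9 and -0.20 to -0.07 on day 12. The same genes had medians of -0.19, -0.01, -0.03 and -0.66 in early B-lineage cells, -0.01, 0.10, 0.04 and -0.05 in neutrophils and -0.15, 0.04, -0.13 and -0.34 in free RNA, and on day 6 those of neutrophils and free RNA lay above 0 while that of members lay below. Most of the differences were small, since only 2 genes passed 1.5-fold on any day. Members of days 3, 6 and 9 had median mitochondrial shares of 4.38%, 4.86% and 5.38%, against 2.94% and 3.69% on days 0 and 12. In the same order, 61.1%, 59.5% and 63.1% had a Vpreb3 UMI, against 43.3% and 33.3%. H2-Aa, H2-Ab1 and H2-Eb1 were lower in members with Vpreb3 and no Fcer2a, as given below. The parts of cell quality and of maturity in the class II values were not tested.

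Since the H2 genes of the class II list lie together on chromosome 17 and those compared were below day 0 on days 3, 6 and 9, 3 of their promoters are shown, with 250 bases before and 50 after the start of the transcript (RefSeq, GRCm38.p6). The Y box CTGATTGG, searched on both strands with its reverse CCAATCAG, is the known binding word of the factor NF-Y in class II promoters. It was present in 1346 of 32851 promoters (4.10%). Of the 11 genes 8 had an entry in the promoter table used here, and the word was in 4 of them, H2-Aa, H2-Eb1, H2-Eb2 and H2-Oa; Cd74, Ciita and H2-Ab1 had no entry in that table. The 3 shown are those of compared genes with the word, which stands in capitals. They are H2-Aa at chr17:34287774-34288073 (minus strand), H2-Eb1 at chr17:34305617-34305916 (plus strand) and H2-Oa at chr17:34092129-34092428 (plus strand). The word lies 51, 62 and 46 bases before the start. A match is a description and does not show that a factor binds.
H2-Aa: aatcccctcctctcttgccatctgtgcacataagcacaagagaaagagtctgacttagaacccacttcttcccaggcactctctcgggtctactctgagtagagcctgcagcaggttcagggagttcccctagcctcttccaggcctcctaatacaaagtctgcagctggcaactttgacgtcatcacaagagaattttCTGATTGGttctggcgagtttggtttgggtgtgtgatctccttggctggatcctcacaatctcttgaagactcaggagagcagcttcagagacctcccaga
H2-Eb1: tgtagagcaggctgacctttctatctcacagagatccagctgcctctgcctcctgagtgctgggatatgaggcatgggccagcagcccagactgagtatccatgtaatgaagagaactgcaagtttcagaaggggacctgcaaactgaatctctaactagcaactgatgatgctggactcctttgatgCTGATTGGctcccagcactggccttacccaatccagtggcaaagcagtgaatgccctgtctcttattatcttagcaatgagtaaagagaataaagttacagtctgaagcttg
H2-Oa: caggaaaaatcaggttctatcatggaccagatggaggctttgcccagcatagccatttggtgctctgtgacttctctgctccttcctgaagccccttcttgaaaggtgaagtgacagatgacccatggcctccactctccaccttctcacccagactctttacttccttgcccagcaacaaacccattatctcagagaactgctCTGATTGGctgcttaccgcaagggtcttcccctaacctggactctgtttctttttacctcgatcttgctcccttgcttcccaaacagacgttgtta

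No survival gene passed 1.5-fold between days. Tnfrsf13c, the BAFF receptor that mature B cells need to live, had levels of 3.42, 4.30, 4.18, 4.45 and 4.12, and Tnfrsf13b, the related receptor TACI, 1.81, 1.76, 1.85, 1.78 and 1.66. Cd40, which receives T cell help, had 0.684, 0.870, 0.817, 1.05 and 0.893, and Bcl2, which blocks cell death, 0.866, 0.983, 1.17, 0.690 and 1.09. Of the 12 genes 8, 8, 7 and 6 were compared on days 3, 6, 9 and 12. No homing gene passed either. Cxcr4, which holds cells in marrow, had levels of 0.885, 1.16, 1.36, 0.598 and 0.672, Cxcr5, which leads into follicles, 0.571, 0.403, 0.630, 0.406 and 0.937, and Ccr7, which leads into T cell zones, 1.14, 1.23, 1.46, 1.03 and 1.03. S1pr1, which lets cells leave tissue, had 1.09, 1.35, 1.06, 1.0 and 1.29. No gene of the 10, 10, 9 and 11 of 15 compared passed, with medians of -0.04, 0.02, -0.05 and -0.05, and on day 12 the median was 0.05 at 1000 UMIs per cell.

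Early B-lineage cells are the class nearest in lineage. The classes are set apart by Rag1, Vpreb1 and Dntt, and members alone need Ighd or Ms4a1, so this contrast is a description. Over the 4376 genes compared, 58 were higher in members past 1.5-fold in all 5 libraries (1.33%) and 70 lower (1.6%). At 1000 UMIs per cell 44 were higher and 44 lower. With a pseudocount of 0.1 the counts were 126 and 304. Without day 12 they were 62 and 76. The genes with the largest smallest logFC over the 5 libraries were Cd74 (2.07), H2-Aa (1.80), H2-Eb1 (1.77), H2-Ab1 (1.54) and H2-DMb2 (1.37). After them came Fcmr, the IgM Fc receptor (1.25), Ltb, a lymphotoxin that shapes lymphoid tissue (1.23), Bank1 (1.15), Igkc (0.97) and Pou2f2 (0.92). Fcmr had levels of 5.52, 6.32, 5.34, 4.84 and 5.10 in members and 0.573, 0.359, 0.489, 0.668 and 0.113 in early cells. Ltb had 9.27, 8.11, 7.61, 6.90 and 7.10 in members and 1.56, 0.661, 1.26, 1.30 and 0.397 in early cells. In the other direction were Igll1, the surrogate light chain of the pre-B receptor (-1.97), the chromatin proteins Hmgb2 (-1.12) and Hmgb1 (-1.07), and 2810417H13Rik, a replication factor (-1.03). After them came Stmn1 (-0.98), Tifa, an adaptor to NF-kB (-0.97), the tubulin Tuba1b (-0.92), the histones Hist1h2ap (-0.90) and H2afz (-0.87), and the sodium pump chain Atp1b1 (-0.86). Igll1 had levels of 0.0556, 0.154, 0.0375, 0.198 and 0 in members and 15.9, 7.26, 7.23, 8.86 and 14.7 in early cells. Thus class II genes were among those higher in members, and Igll1, a replication factor and histones among those lower.

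By list, 8 of 9 class II genes compared were higher in members in all 5 libraries, as were 4 of 8 follicular genes (Fcer2a, Klf2, Cd55 and Tnfrsf13c). Of 22 receptor signaling genes 5 were higher (Cd22, Ptpn6, Ptprc, Bank1 and Ralgps2), and of 23 transcription factors 4 were higher (Pou2f2, Mef2c, Bcl11a and Klf2). No gene of these 4 lists was lower. Of 8 immature and transitional genes 6 were lower in members (Cd93, Vpreb3, Myb, Sox4, Igll1 and Il7r). Median UMIs of early B-lineage cells were 2766, 10552, 4334.5, 4385.5 and 5655, above those of members in each library.

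Immediate-early genes switch on within minutes of a stimulus, including tissue handling. Fos, a subunit of the factor AP-1, had levels of 5.70, 1.58, 2.87, 3.79 and 5.08, its partners Fosb 3.02, 0.862, 1.44, 1.96 and 3.19, Jun 3.41, 1.5, 1.92, 2.30 and 2.41 and Junb 7.36, 2.28, 3.75, 2.96 and 4.59. Each of the 4 was lowest on day 3, and each but Fosb was highest on day 0. Jund, a further AP-1 subunit, had 12.0, 6.23, 7.77, 10.0 and 9.27, Dusp1, which turns off kinases, 2.1, 0.652, 0.978, 1.22 and 1.49, and Cd69, an early activation antigen that retains cells in tissue, 1.51, 0.597, 0.647, 0.824 and 0.916. Btg1, which restrains division, had 12.0, 12.2, 12.4, 11.3 and 11.5 and did not vary in this way. Of 23 genes 16, 16, 16 and 17 were compared, none was higher, and 9, 6, 1 and 1 were lower, with medians of -0.43, -0.27, -0.28 and -0.23. On day 3, 9 of 16 were lower against 0.823% of all genes. The list summed to levels of 69.3, 40.2, 50.4, 50.6 and 54.0 in members.

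The same genes had lower levels in the other cell classes of the same libraries on days 3, 6 and 9. Their medians were -0.69, -0.42, -0.57 and -0.25 in early B-lineage cells, -0.30, -0.17, -0.36 and -0.15 in neutrophils, -0.37, -0.15, -0.25 and 0.01 in T cells and -0.28, -0.21, -0.29 and -0.11 in free RNA. On day 3, 16, 5 and 7 of 16 were lower in early B-lineage cells, neutrophils and T cells. The share of all genes that were lower in those classes is not given here, so these counts are a description. The lower values on days 3, 6 and 9 were thus shared by all of these classes, and the part of free RNA and of handling was not tested. The plot of logFC by list shows the immediate-early genes of members spread below 0 on day 3, with Btg1 near 0, and class II genes lying close together. A pseudocount of 0.1 gave immediate-early medians of -0.68, -0.46 and -0.39 on days 3, 6 and 9.

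**Figure D3:**
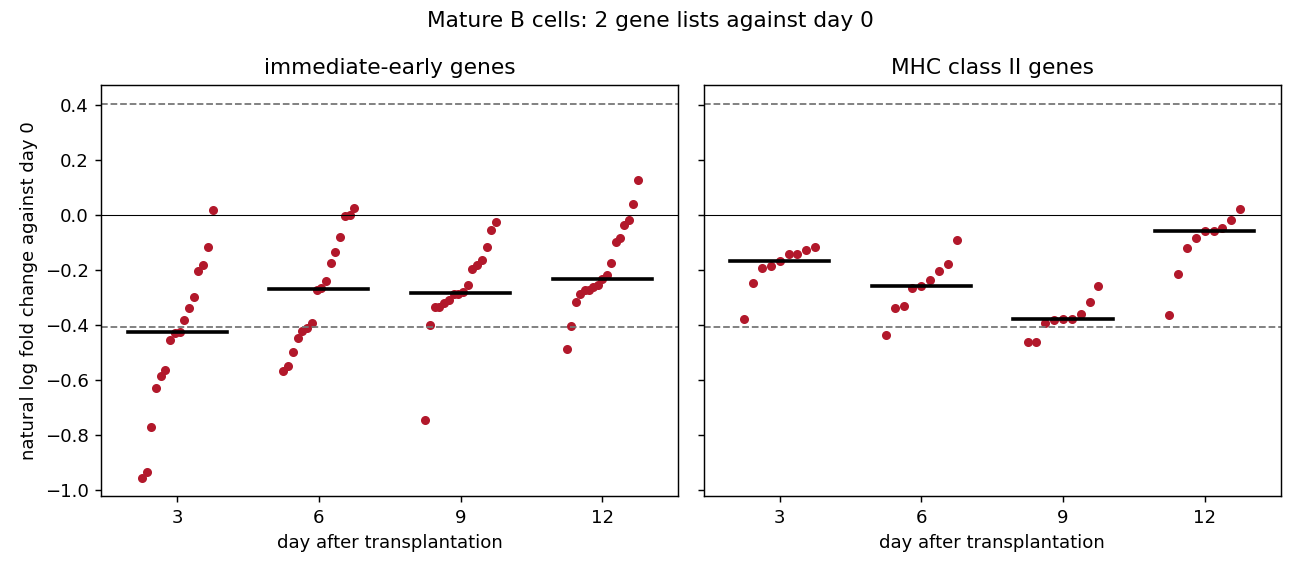
LogFC against day 0 (natural log, vertical axis) of each compared gene of the immediate-early and MHC class II lists on days 3, 6, 9 and 12, with points as genes, black lines as medians and dashed lines at 1.5-fold. Immediate-early medians are -0.43, -0.27, -0.28 and -0.23, and class II medians -0.17, -0.26, -0.38 and -0.06.

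Among heat shock genes, Hspa8, a constitutive chaperone, had levels of 5.0, 7.82, 6.26, 6.82 and 4.73. Of 11 genes 9, 8, 8 and 8 were compared, with medians of 0.16, 0.01, 0.03 and -0.13, and only Hspa5, the chaperone of the endoplasmic reticulum, passed, lower on day 12. Among interferon-stimulated genes, Ifi27l2a had levels of 4.93, 12.7, 7.35, 9.98 and 7.05 in members and 3.53, 6.31, 5.45, 3.90 and 3.41 in neutrophils. It was higher in members on days 3 and 9, and day 3 had the highest value in both classes. Ly6e, a membrane protein of lymphocytes, had 18.7, 23.8, 22.1, 20.1 and 17.4. Of the 24 genes of the list Ifi213 and Ifi206 were not in the gene table, 11, 9, 9 and 9 were compared, and the medians were 0.16, 0.06, 0.07 and 0.04. No other gene of the list passed 1.5-fold on any day. The medians of the receptor signaling, transcription factor, homing, heat shock and interferon lists changed sign under at least 1 alternative on at least 1 day and are not read as directions.

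Some mitochondrial transcripts rose in members after day 0. The median mitochondrial share of a member's UMIs was 2.94%, 4.38%, 4.86%, 5.38% and 3.69%. mt-Nd1, a subunit of respiratory complex I, had levels of 24.2, 42.7, 49.0, 52.4 and 27.6 in members, 30.0, 43.7, 43.1, 45.3 and 32.8 in T cells and 4.13, 6.78, 8.69, 9.43 and 3.45 in neutrophils. mt-Nd3, another subunit, had 2.65, 6.22, 6.87, 7.86 and 4.81 in members and 3.33, 5.93, 6.01, 6.01 and 4.67 in T cells. Both genes were above their day 0 level on days 3, 6 and 9 in each of these cell classes. The limit of 10% removed 3, 5, 15, 14 and 0 barcodes that otherwise met the rule. That limit caps the mitochondrial share of members and so bounds these levels. The parts of cell quality and of free RNA in the differences were not tested.

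Members varied among themselves in markers of maturity. A Fcer2a UMI was found in 29.3% (25 to 34.0), 18.3% (12.1 to 26.0), 26.6% (22.1 to 31.4), 18.8% (14.5 to 23.8) and 29.2% (17.0 to 44.1). After drawing 1000 UMIs from each cell, to set depth equal, the shares were 20.9%, 8.59%, 13.4%, 11.6% and 17.8%, against at most 0.103% in neutrophils and 0.368% in T cells. Here and below the drawing was done on members chosen at full depth, so depth was not set equal for the choice of cells. Day 0 remained the highest and day 3 the lowest at equal depth. Median UMIs before drawing were 3604, 3714, 3459, 3282 and 3295 in neutrophils and 2307, 2998, 3065, 2780 and 2540 in T cells.

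Vpreb3, a protein that binds the forming receptor in precursors, had a UMI in 43.3% (38.5 to 48.2), 61.1% (52.2 to 69.5), 59.5% (54.2 to 64.5), 63.1% (57.2 to 68.7) and 33.3% (20.4 to 48.4) of members. At 1000 UMIs the shares were 34.0%, 41.4%, 39.9%, 46.6% and 22.2%, against 2.01%, 2.23%, 4.51%, 3.70% and 0.582% in neutrophils and 2.39%, 1.83%, 5.07%, 3.18% and 1.06% in T cells. Its levels were 6.00, 10.7, 8.86, 12.3 and 3.58 in members and 33.0, 19.2, 30.5, 29.6 and 24.6 in early B-lineage cells. Members thus lay well above background and below precursors, with the highest values on days 3 and 9. By logFC, 0.51, 0.34, 0.64 and -0.42, it was higher on days 3 and 9 and lower on day 12. Cd24a, a surface antigen of immature B cells, had levels of 5.64, 8.04, 7.32, 7.48 and 3.99, in the same order of days as Vpreb3 except that day 3 was the highest, and did not pass. Of the 8 genes of the immature and transitional list these 2 were compared. Among members with a Fcer2a UMI, 47.5%, 45.8%, 54.6%, 44.4% and 35.7% also had a Vpreb3 UMI, and among those without 41.5%, 64.5%, 61.2%, 67.4% and 32.4%. The marks were therefore not exclusive.

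Cd93, which marks transitional cells, had a UMI in 1.68%, 6.11%, 3.84% and 5.57% of members of days 0, 3, 6 and 9, and in 0 of 48 cells of day 12, which allows a share of up to 6.25%. At 1000 UMIs the shares on days 0, 3, 6 and 9 were 0.515%, 4.69%, 0.838% and 2.89%, against 0.461%, 0.686%, 0.746% and 0.786% in neutrophils. On days 0 and 6 the share was near that background, and on days 3 and 9 it was above it at this depth. At their own depth neutrophils had 1.78%, 3.26%, 3.00% and 2.90%, with 95% intervals that overlap those of members on each of these days. Without members that had transcripts of another lineage the shares were 1.42%, 4%, 3.00% and 3.08%. In early B-lineage cells the share at 1000 UMIs was 8.02%, 7.87%, 7.42%, 8.83% and 12.8%. The plot of shares within members shows Fcer2a lowest on days 3 and 9, and Vpreb3 higher on days 3, 6 and 9 than on days 0 and 12, at both depths, with lambda steady.

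**Figure D4:**
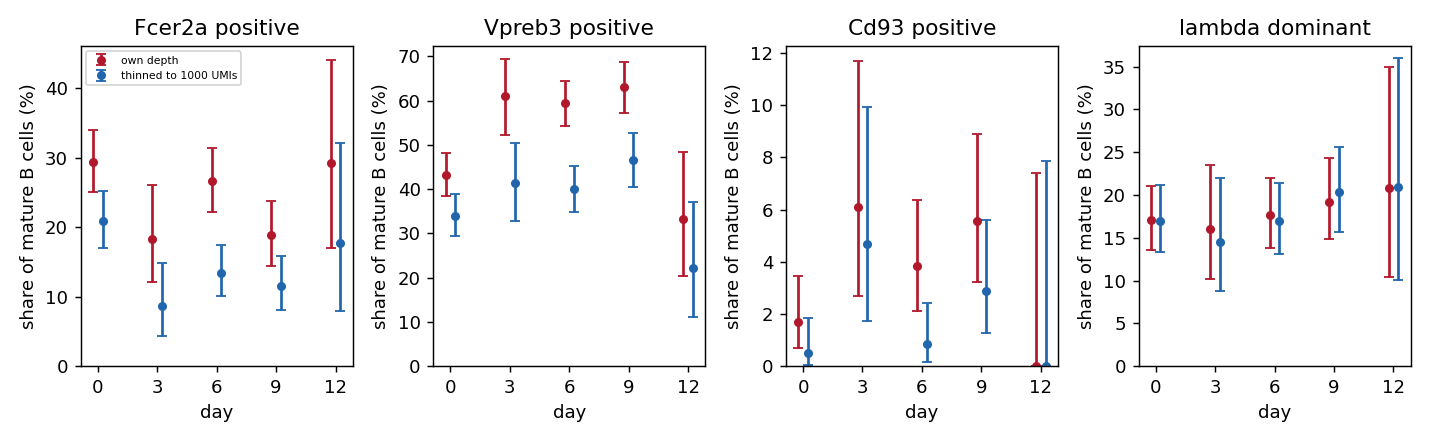
Share of members (%) with a UMI of Fcer2a, Vpreb3 or Cd93, or with more lambda than kappa UMIs, against day after transplantation, at each cell's own depth and after drawing 1000 UMIs per cell, with 95% Clopper-Pearson bars. Vpreb3 is at 43.3% on day 0 and 63.1% on day 9, Fcer2a at 29.3% and 18.8%.

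Members with Cd93 and no Fcer2a were set against those with Fcer2a and no Cd93, to see which other genes differed between cells sorted by these UMIs. They numbered 6, 6, 11, 14 and 0 against 121, 22, 94, 52 and 14, so days 0, 3, 6 and 9 could be used. Median UMIs were 4399.5, 4834, 5436 and 4230.5 against 1630, 2079, 2178.5 and 1878, so depth differed as well. On days 0 and 6 the Cd93 share was near that of neutrophils, so the split sorts cells by captured UMIs and does not show that they express Cd93. The genes named were chosen for a large difference with the same sign in each usable library, which fixes their direction. Levels are given over the usable libraries and not by day, and the mix of days differs between the 2 groups. Vpreb3 (14.3 against 4.17), Plac8 (16.3 against 6.00), the chromatin gene Hmgb2 (9.76 against 3.97) and the mitochondrial carrier Ucp2 (6.15 against 2.43) had higher levels with Cd93, as had Pafah1b3, Dnajc7, Lgals1 and Cacybp. H2-Eb1 (7.21 against 29.2), H2-Ab1 (9.58 against 33.9), H2-Aa (12.0 against 36.3) and Cd55 (0.602 against 3.92) had lower levels, as had H2-Oa, Shisa5, Gm43603 and Ltb. All members with a Cd93 UMI numbered 7, 8, 14 and 16 on days 0, 3, 6 and 9. Without members that had transcripts of another lineage they numbered 5, 4, 7 and 6. Hmgb2 had levels of 16.1 to 19.3 in neutrophils, and Plac8 was higher in free RNA than in either group. The part of other cells' transcripts in this split was not tested.

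Because few members had Cd93, a split by Vpreb3 was added after the data were seen. Members with Vpreb3 and no Fcer2a numbered 122, 69, 164, 157 and 11, and those with Fcer2a and no Vpreb3 64, 13, 44, 30 and 9. Their median UMIs were 1713, 2332, 2483.5, 1826 and 1491 against 1502.5, 2018, 1954, 1609.5 and 1984. Levels with Vpreb3 were higher for Cd24a (9.95 against 3.25), the co-chaperone Dnajc7 (5.31 against 1.59) and Cd72 (4.34 against 1.42), and for Pafah1b3, Fam129c, Chchd10 and Ucp2. They were lower for H2-Eb1 (15.5 against 31.8), H2-Aa (19.7 against 37.2), H2-Ab1 (19.9 against 36.7) and Rps27 (101 against 162), and for Gimap4, Apoe and Bmyc. The named genes differed the same way in each of the 5 libraries by choice. The plot of these 14 genes shows Cd24a and the class II chains on opposite sides of equal levels.

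**Figure D5:**
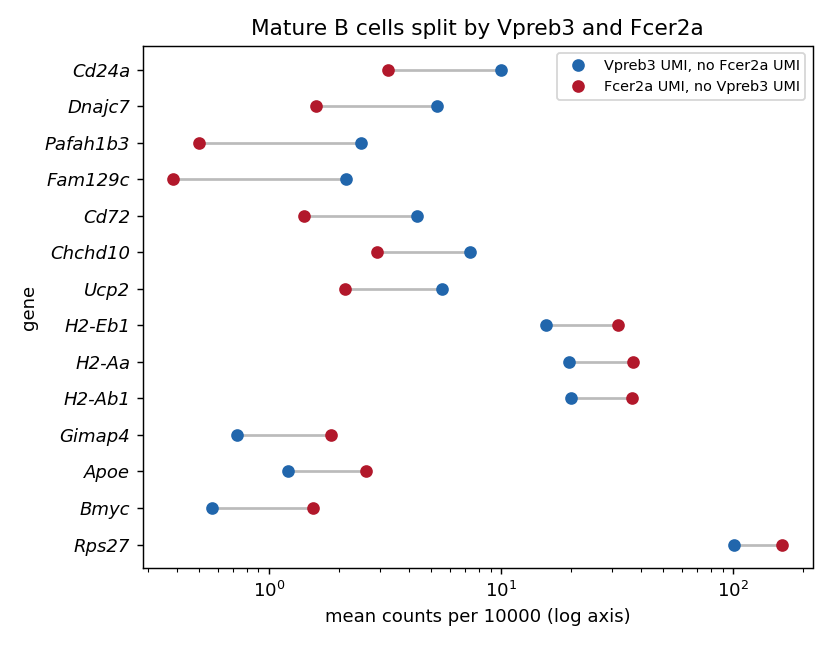
Mean level (UMIs per 10000, log axis) of 14 genes in members with a Vpreb3 UMI and no Fcer2a UMI and in members with a Fcer2a UMI and no Vpreb3 UMI, over the 5 libraries. Cd24a is at 9.95 against 3.25, and H2-Eb1 at 15.5 against 31.8.

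Genes of other mature B cell types were sparse. Of 8 marginal zone genes, Plac8 had levels of 6.90, 12.0, 7.95, 8.78 and 9.08 in members and 21.3, 25.2, 20.8, 22.3 and 23.4 in free RNA, and was higher on day 3. Mzb1, a chaperone for IgM secretion, had 4.14, 4.64, 3.70, 3.47 and 4.04 and did not pass. Of the B-1 list of 6 genes, Itgam was higher on day 12. Itgam, on 2 gene IDs, is an integrin of neutrophils too, and the list summed to 0.406, 0.614, 0.724, 0.752 and 1.57 in members and 2.49, 3.15, 3.09, 3.52 and 3.34 in neutrophils. The germinal center and memory list of 9 genes summed to 0.469, 0.258, 0.334, 0.336 and 0.780, with Gcsam at 0, and none could be compared. Whether members included a small group of such cells was not tested.

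Plasma cell genes were sparse, and on day 6 most Jchain UMIs came from 1 cell. The 12 genes of the list summed to levels of 0.941, 1.58, 2.43, 2.73 and 0.947. Jchain, which joins IgM and IgA into polymers, had 0, 5, 845, 42 and 0 UMIs in 0, 4, 35, 31 and 0 members. On day 6, 1 member held 807 of the 845 UMIs, with 24236 UMIs in all, of which 2319 were Ighm and 5457 Igkc; the next most in a member was 2. That member, singled out after its values were seen, held these against day totals of 5262 for Ighm and 14840 for Igkc. The Jchain level of day 6 was 1.28, and 0.373 without it, while free RNA of that day had 3.19. On day 9, Jchain and Igha were higher in members, beside levels of 3.69 and 6.01 in free RNA. Both were compared through day 9 alone, and Jchain is set against 0 UMIs on day 0. A UMI of Igha or of an Ighg gene was found in 1.20%, 4.58%, 5.75% and 19.5% of members on days 0, 3, 6 and 9 and in 0 of 48 cells on day 12, which allows up to 6.25%. At 1000 UMIs it was found in 0.773%, 2.34%, 2.79%, 9.03% and 0% of members and 0.0987%, 2.64%, 1.59%, 8.95% and 0.752% of neutrophils, with 95% intervals that overlap on each day. The share on day 9 was thus at that background. Counting cells with 3 or more such UMIs left 2, 0, 0, 5 and 0 members.

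Division genes were low. Mki67, a marker of dividing cells, had levels of 0.140, 0.327, 0.192, 0.420 and 0.483, and Stmn1, which breaks down microtubules, 1.19, 2.35, 1.97, 2.35 and 2.52. Stmn1 was higher on days 3, 9 and 12, and Birc5, which acts in cell division, on day 12. The 12 genes summed to 3.51, 6.52, 5.49, 5.97 and 6.85 in members and 17.7, 21.2, 18.9, 19.5 and 20.4 in free RNA. At 1000 UMIs per cell, 4.64%, 6.25%, 4.19%, 6.14% and 11.1% of members had a UMI of Mki67 or Top2a, against 1.84%, 5.49%, 6.42%, 5.41% and 4.26% in T cells. The 95% intervals of members overlap those of T cells on each day, least so on day 0 (2.77% to 7.23% against 0.885% to 3.35%), and the difference was not tested.

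A hand-made list of 8 genes around the leukemia was sparse in members. Of these, Cdkn2a, a cell-cycle inhibitor, had 1, 1, 1, 0 and 0 UMIs, Tmem119 none, and Myl10 1, 8, 1, 4 and 0. None of the 8 could be compared. Of the sex-linked genes, Xist, which silences an X chromosome in females, had levels of 20.3, 20.1, 19.9, 22.4 and 18.6 in members, and Ddx3y, Eif2s3y, Kdm5d and Uty on the Y chromosome had no UMI in any library's members. Members of the 5 libraries thus had the pattern of female cells.

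The 10 genes with the highest levels in members were Malat1, S100a8, S100a9, Cd74, Tmsb4x, Rps27, Igkc, mt-Atp6, mt-Co3 and Rps29. S100a8 had levels of 155, 122, 186, 190.2 and 260.0 and S100a9 of 123, 114, 168, 174 and 204, which belong to neutrophils. Malat1, a nuclear RNA, had 393, 384, 362, 358 and 417, and Tmsb4x, which binds actin, 135, 134, 142, 142 and 149. Rps27, a ribosomal protein gene, had 163, 117, 116, 109 and 149.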

How the data were processed

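Deposited counts were used: the authors made raw UMI counts per gene and barcode with Cell Ranger on mm10, and no barcode was filtered. Classes were called by rules on raw counts, and members and lists were chosen with earlier results of these data known. There were 28 lists with 284 genes. Named genes were every list gene, the 5 largest increases and decreases per day with at least 50 UMIs in both libraries together, 10 per direction against early B-lineage cells by the smallest logFC over libraries, 8 per direction in each split, and the 10 highest levels. Some of these genes are not reported here. A pseudocount of 1 was used. Medians are given for lists with at least 8 genes compared on every day, a limit set after the data were seen. Drawing UMIs used seed 1. Alternatives changed the pseudocount, scaling, depth, filters, mitochondrial limit or rule. Python 3.11.15, numpy 2.4.6, scipy 1.17.1, pandas 2.3.3 and matplotlib 3.10.9 were used, and code was tested on simulated data. With no replicates, logFC and medians within 0.1, counts within 1.5 times and shares within their 95% interval were taken as unmoved.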

Additional observations from a re-analysis of the deposited data

How the results depend on the processing

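Of the logFC rerun, those of the largest increases and decreases per day and against early B-lineage cells, none changed sign; medians of MHC class II and immediate-early genes stayed below 0 under all of them. For the values that moved, the cause was not tested, except that fewer genes or cells enter under filters. At least 5 UMIs of Ighd and Ms4a1 gave member shares of 2.57%, 1.81%, 3.28%, 1.99% and 0.324% on days 0, 3, 6, 9 and 12, and the rule at 1000 UMIs 3.19%, 1.21%, 2.34%, 1.96% and 0.375%. Without members that had transcripts of another lineage, shares were 5.62%, 2.05%, 3.86% and 2.81% on days 0, 3, 6 and 9, genes higher 33 on day 3 and 120 on day 12, genes lower 87 on day 12, neutrophil list medians 0.10, 0.14 and 0.24 on days 3, 6 and 9, and the Cd93 share 3.08% on day 9. That setting removes members partly by the neutrophil list, so its neutrophil list medians are shaped by the choice. A mitochondrial limit of 5% gave shares of 1.94%, 3.79% and 2.12% on days 3, 6 and 9, genes lower 22 on day 6 and 34 on day 9, neutrophil list medians 0.48 and 0.60 on those days, a follicular median of -0.26 on day 9, and on day 12 medians of -0.13 for transcription factors and 0.046 for homing. A pseudocount of 0.1 gave 291, 173, 199 and 525 genes higher and 185, 95, 134 and 349 lower on days 3, 6, 9 and 12. It gave follicular medians of -0.19 and -0.26 on days 3 and 9, and immediate-early medians of -0.68, -0.46 and -0.39 on days 3, 6 and 9. Against early B-lineage cells, with this pseudocount, a setting chosen after seeing the data, 126 were higher and 304 lower. At 1000 UMIs per cell, 34 genes were higher on day 3, 30 lower on day 9 and 127 higher on day 12, with day 12 medians of -0.15 for follicular and 0.045 for homing genes. The Cd93 share was 0.515%, 0.838% and 2.89% on days 0, 6 and 9 and the Fcer2a share 20.9%, 8.59%, 13.4% and 11.6% on days 0, 3, 6 and 9. Against early B-lineage cells, also chosen after seeing the data, 44 were lower. Without genes higher in neutrophils, likewise chosen after seeing the data, 11 were lower on day 3, 8 higher and 7 lower on day 6, 19 higher on day 9, and 41 higher and 27 lower on day 12. Genes in at least 25% of members gave 9 lower on day 6 and 29 higher and 22 lower on day 12. Summed UMIs gave 26 lower on day 9, 40 higher and 33 lower on day 12, and day 12 medians of -0.20 for MHC class II and 0.079 for neutrophil genes. Of list medians 163 did not move and 17 did; of gene logFC against day 0, 122 did not and 78 did; of those against early B-lineage cells 87 did not and 113 did. Day 12 is limited by its number of cells, 48 members.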
